A study of Homo sapiens with 8 samples.

Results

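The 34 genes described here are direct transcriptional targets of the tumour suppressor p53, found by gene symbol. They were chosen by name as a fixed list, with earlier results of these data known. All 34 were among the 19952 symbols listed in each file. RNA was sequenced from 8 libraries of 2 human uveal melanoma cell lines, with 2 libraries in each of 4 groups. In the 92.1 line, A3B (APOBEC3B, a cytidine deaminase that converts C to U in single-stranded DNA) was knocked down by a lentiviral short hairpin (shA3B) and compared with shCtrl cells. The methods describe an empty vector as the shCtrl construct. In the MEL290 line, full-length A3B was overexpressed from a lentiviral vector (A3B OE), and control cells were labelled NC. All cells were selected with puromycin after infection, and the labels do not say which hairpin the shA3B cells carried, whether a line was 1 clone or whether the 2 libraries of a group came from separate cultures, so the p-values measure the spread between these libraries, which may be technical.

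The protein p53 is a transcription factor that is held at a low level by the ubiquitin ligase MDM2 and accumulates after DNA damage or replication stress. It binds a pair of short half-sites in the promoters or first introns of its targets, among them genes that stop the cell cycle, trigger apoptosis, repair DNA, adjust metabolism, or feed back on p53 itself. Lowering of cell cycle genes by p53 is indirect and runs through the CDK inhibitor p21, the product of CDKN1A, and the repressor complex DREAM. The study asked whether A3B shapes the response to replication stress, and p53 targets are one readout of such stress.

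Stretches near the members that match the p53 consensus are shown first, because p53 acts on its targets through such sequences and the results return to them. Within 2500 bases on each side of the start of the canonical transcript (GENCODE 44, GRCh38), the reference genome was searched for the 20-base p53 consensus, which is 2 adjacent half-sites of 10 bases, each made of 3 purines, a C, a pair of positions that are A or T, a G and 3 pyrimidines. Up to 2 mismatches were allowed, but none at the C and G of either half-site, and the consensus reads the same on both strands. Such a site was found near 16 of the 34 members (47.1%), and near 14 of the 31 members tested in MEL290 (45.2%), beside 425 of the 11356 genes tested in MEL290 with a gene model (3.74%). Sites of 9 members are printed 5′ to 3′ on the strand of the gene, from the reference genome, with the site in capitals and 5 flanking bases on each side in lower case. The first 7 belong to genes that were lower in A3B OE cells and the last 2, PLK2 and BAX, to genes that were not called.
CDKN1A, upstream, chr6:36676444-36676473, + strand: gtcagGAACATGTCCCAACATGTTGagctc
MDM2, intron 1, chr12:68808918-68808947, + strand: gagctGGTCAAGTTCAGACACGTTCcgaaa
ZMAT3, intron 1, chr3:179070183-179070212, - strand: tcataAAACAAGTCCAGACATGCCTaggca
BTG2, upstream, chr1:203303637-203303666, + strand: gggtcACGCATGTTCAGGCATGCATggaat
GADD45A, intron 3, chr1:67686770-67686799, + strand: gtacaGAACATGTCTAAGCATGCTGgggac
FAS, intron 1, chr10:88991304-88991333, + strand: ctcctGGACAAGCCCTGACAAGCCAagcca
AEN, upstream, chr15:88621301-88621330, + strand: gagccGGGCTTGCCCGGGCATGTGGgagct
PLK2, upstream, chr5:58462269-58462298, - strand: atgagAAACATGCCTGGACTTGCCCtgcac
BAX, intron 1, chr19:48955208-48955237, + strand: cccccGGGCAGGCCCGGGCTTGTCGcccgc
The sites of ZMAT3 and PLK2 matched the consensus with 0 mismatches, that of GADD45A with 1, and the others printed with 2. The place of each site is given relative to the canonical transcript. The site of CDKN1A lay upstream, at position -2256 from that start, although another annotated transcript of the gene begins inside it, and the site of MDM2 lay 755 bases after the start. A match is a description of the sequence, and binding was not measured here.

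The deposited values are FPKM, fragment numbers scaled to transcript length and to the mapped fragments of the library, so that levels can be compared between genes. Read counts and depth were not given. A rough depth from the lowest FPKM values was 17400000 to 32100000 fragments per library. In MEL290 it was 17400000 and 20600000 in NC and 27500000 and 22800000 in A3B OE libraries. In 92.1 it was 27000000 and 25100000 in shCtrl and 27400000 and 32100000 in shA3B libraries. The part of depth in the results was not tested. The rough depth is imprecise, because the share of genes whose estimate fell within 5% of the peak was 17.5% to 29.1%. APOBEC3B was at 35.9 and 32.3 FPKM in shCtrl and 1.98 and 2.37 FPKM in shA3B libraries of 92.1, and at 2.67 and 2.19 FPKM in NC and 28.4 and 27.5 FPKM in A3B OE libraries of MEL290, in the directions of the labels. Of 7 melanocytic markers, all 7 were at 1 FPKM or more in both libraries of each 92.1 group, with sums of 7114 to 8711 FPKM per library. In MEL290, 1 marker was at that level in NC and 2 in A3B OE cells, with sums of 15.2 to 20.7 FPKM, so the markers of the labelled cell type were largely absent from this line. MITF was the marker above 1 FPKM in NC cells, and MLANA and TYR, genes of pigment cells, were at or near 0. Of the leukocyte, endothelial, epithelial and fibroblast markers combined, 2 to 3 were at 1 FPKM or more in both libraries of a group. The highest sum outside the melanocytic list was 40.8 FPKM, of the fibroblast markers in A3B OE cells. The epithelial marker KRT14 was at 1.98 and 2.36 FPKM in NC and 0.412 and 0.545 FPKM in A3B OE libraries (log2 fold change -1.10). Only its NC libraries reached 1 FPKM, the level required for testing, so its direction was fixed in advance. Its part in the results was not tested.

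The p53 targets were expressed in both lines. An FPKM of at least 1 was reached in all 8 libraries by 30 of the 34 members. TNFRSF10A, a death receptor for TRAIL, and SPATA18, a mitochondrial quality control gene, stayed below 1 FPKM in every library. CMBL, a hydrolase, was listed at 0 in all 4 libraries of 92.1 and lay between 18.3 and 24.0 FPKM in MEL290. GDF15, a secreted stress cytokine, lay between 1.53 and 2.70 FPKM in 92.1, was listed at 0 in both NC libraries and reached 0.193 and 0.0945 FPKM after A3B OE. By group means, 27 of the 34 members were highest in MEL290 NC cells, and for 25 of them the order was NC, then A3B OE, then both groups of 92.1. Both counts include CMBL, which was listed at 0 in 92.1. The share of all genes with this order was not counted, so the counts describe this list alone. The highest single values were those of CDKN1A (391 FPKM), PLK2 (317 FPKM), BAX (173 FPKM), RPS27L (159 FPKM) and CCNG1 (126 FPKM).

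**Figure D1:**
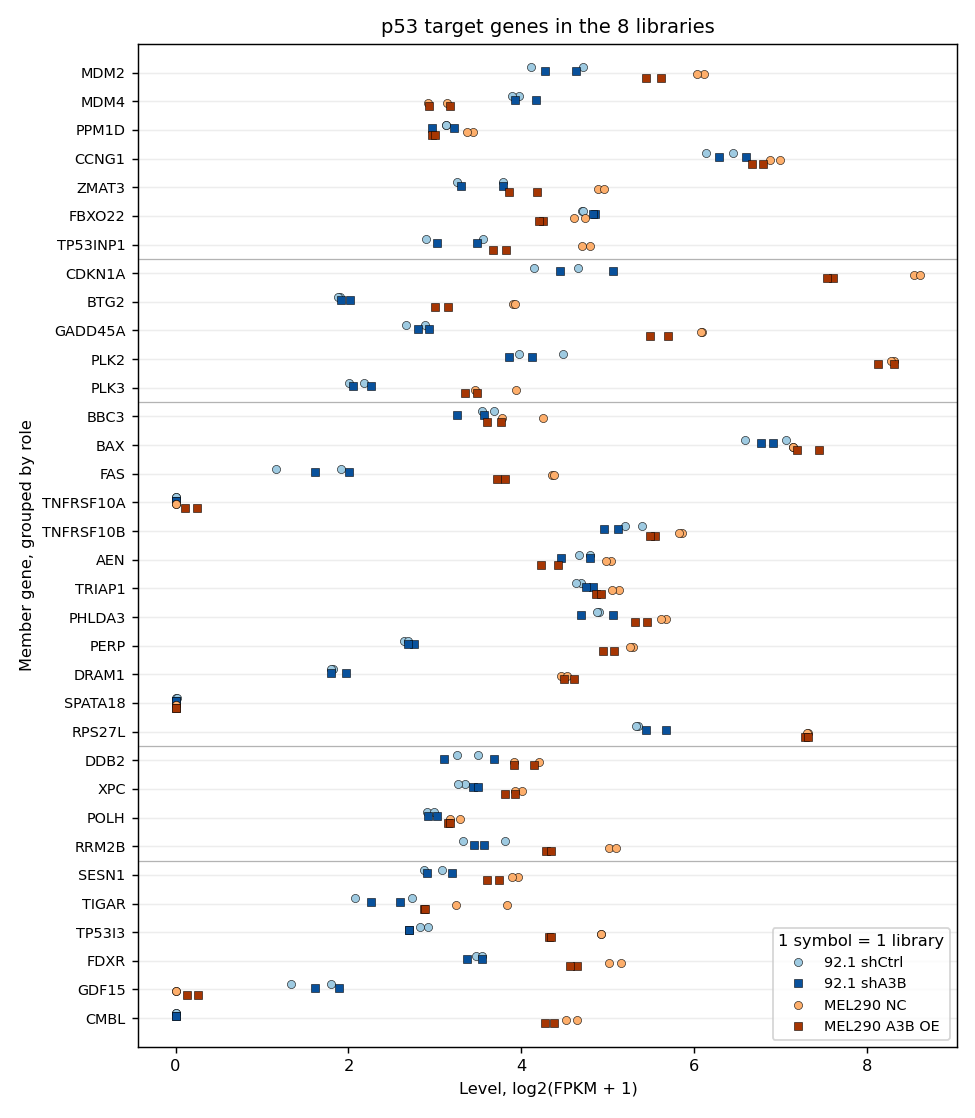
Level of each of the 34 members, as log2(FPKM + 1) on the x axis, in the 8 libraries, with 1 symbol per library and the members grouped by role on the y axis. The A3B OE squares of CDKN1A, ZMAT3, TP53INP1 and BTG2 sit left of both NC circles, while both groups of 92.1 overlap for MDM2 and CDKN1A.

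Differences were tested with limma on log2(FPKM + 1) over every gene that reached 1 FPKM in 2 or more libraries of the fit, and a gene was called where the Benjamini-Hochberg adjusted p over all genes tested was under 0.05. Log2 fold changes are on this scale, which understates changes of low genes. For a single gene, exact permutation of 2 libraries against 2 (two-sided) cannot give a p below 0.333, so calls rest on the spread that limma shares between genes. In simulated data with the spread of MEL290, the test recovered 13.5%, 81.6% and 98.7% of genes changed by 0.5, 1 and 2 on the log2 scale. In simulated data with the spread of 92.1 it recovered 1.28%, 56.4% and 97.0%. The simulated data held 200 changed genes, fewer than the 2065 genes called in MEL290. The adjusted p depends on the share of changed genes, so these shares can understate recovery in MEL290.

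In MEL290, p53 targets were lower in A3B OE cells than in NC cells. Of the 31 members tested, 13 were called lower and 0 higher (limma, 0 higher also at an unadjusted p under 0.05), beside 7.49% of all 11611 genes tested called lower and 10.3% called higher. The log2 fold change was below 0 for 28 of the 31 members, and its median was -0.32, with 0.00 over all genes tested. For 23 of the 31 members (74.2%) neither A3B OE library reached the lower NC library, beside 29.7% of all genes tested. The members called lower were CDKN1A, TP53INP1, ZMAT3, BTG2, RRM2B, AEN, FAS, TP53I3, MDM2, GADD45A, FDXR, FBXO22 and TNFRSF10B. A lower level in every cell and a smaller share of cells expressing a gene cannot be told apart in bulk RNA. Markers of proliferation moved in the other direction in the same libraries, as given below, and their part in the result was not tested.

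**Figure D2:**
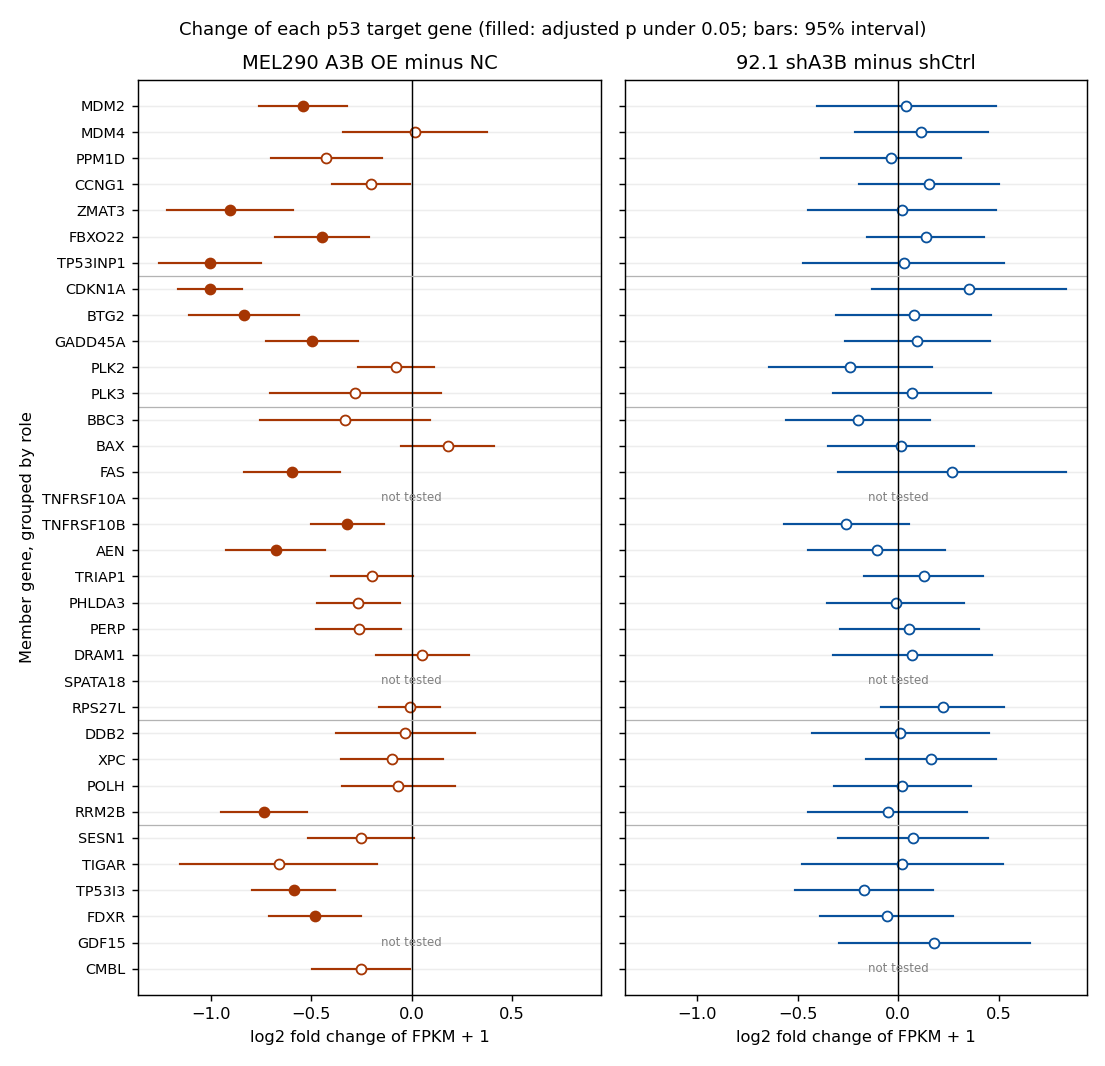
Log2 fold change of FPKM + 1 (x axis) of each member with its 95% interval from limma, in MEL290 (left, A3B OE minus NC) and in 92.1 (right, shA3B minus shCtrl), with the members grouped by role on the y axis. Filled points have an adjusted p under 0.05, which is 13 members on the left, all below 0, and 0 on the right.

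Among the regulators of p53 and feedback genes, 4 of 7 were called lower in A3B OE cells, beside 7.49% of all genes tested. MDM2, the ubiquitin ligase that p53 induces and that degrades p53, was at 68.1 and 64.5 FPKM in NC and 42.6 and 48.2 FPKM in A3B OE libraries. The 2 groups did not overlap, and the log2 fold change was -0.54, with a standard error (SE) of 0.09 and an adjusted p of 0.013 (limma). TP53INP1, which promotes phosphorylation of p53, was at 25.1 and 26.8 FPKM in NC and 11.7 and 13.2 FPKM in A3B OE libraries, and its mean FPKM fell by 52.0%. Its log2 fold change was -1.0 (SE 0.10, adjusted p = 0.0037, limma). ZMAT3, an RNA-binding zinc finger protein, was at 28.7 and 30.0 FPKM in NC and 13.5 and 17.2 FPKM in A3B OE libraries. Its log2 fold change was -0.90 (SE 0.13, adjusted p = 0.0089, limma). These 3 genes were lower in both A3B OE libraries by margins larger than the spread within a group. FBXO22, the substrate receptor of a ubiquitin ligase, was at 23.4 and 25.7 FPKM in NC and 18.03 and 17.5 FPKM in A3B OE libraries, with a log2 fold change of -0.45 (SE 0.10, adjusted p = 0.027, limma). The call of FBXO22 was lost without NC replicate 2 (adjusted p = 0.10, limma) and without either A3B OE library (0.086 without replicate 1 and 0.11 without replicate 2). PPM1D, a phosphatase that switches off p53 signalling, was at 9.85 and 9.35 FPKM in NC and 6.79 and 6.996 FPKM in A3B OE libraries and was not called (log2 fold change -0.42, adjusted p = 0.0503, limma). Its call turned on the setting, since it was called under 5 of the 9 other settings and in 0 of the 4 fits with a library left out. CCNG1, cyclin G1, had a log2 fold change of -0.20 and was not called. MDM4, the partner of MDM2, overlapped between the groups, with 7.84 and 6.59 FPKM in NC and 6.62 and 8.03 FPKM in A3B OE libraries. MDM2 shares 3348 bases with CPM on the other strand and the library kit does not mark strand, and CPM was at 0.715 and 1.22 FPKM in NC and 8.25 and 32.4 FPKM in A3B OE libraries, opposite in direction to MDM2. FBXO22 overlaps NRG4, which stayed at or below 0.422 FPKM in MEL290, and TP53INP1 overlaps NDUFAF6, which lay between 6.56 and 8.98 FPKM there.

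Of the 5 cell cycle arrest genes, 3 were called lower in A3B OE cells, beside 7.49% of all genes tested. CDKN1A, which encodes p21, was the most abundant member in NC cells and was at 371 and 391 FPKM in NC and 194 and 185 FPKM in A3B OE libraries. Its mean went from 381 ± 14.01 FPKM (SD, n = 2) to 189 ± 6.80 FPKM (SD, n = 2). The log2 fold change was -1.0 (SE 0.07, adjusted p = 0.0016, limma), and this was the smallest adjusted p among the members. BTG2, an antiproliferative cofactor of mRNA decay, was at 14.02 and 14.2 FPKM in NC and 7.03 and 7.90 FPKM in A3B OE libraries, with a log2 fold change of -0.84 (SE 0.11, adjusted p = 0.0072, limma). Both genes fell by about the same share, 50.3% for CDKN1A and 47.0% for BTG2 in the mean FPKM, although their levels differed widely. GADD45A, a stress-response gene that restrains entry into mitosis, was at 67.2 and 66.7 FPKM in NC and 50.8 and 43.7 FPKM in A3B OE libraries. Its log2 fold change was -0.50 (SE 0.09, adjusted p = 0.019, limma), and without A3B OE replicate 2 it was -0.39 and not called (adjusted p = 0.058, limma). The polo-like kinase PLK2, at 317 and 309.7 FPKM in NC and 316 and 279 FPKM in A3B OE libraries, overlapped between the groups, and its interval ran from -0.27 to 0.11. PLK2 was not called, whereas CDKN1A, of similar abundance in NC cells, was. PLK3 had a log2 fold change of -0.28 and was not called, and it ranged from -0.52 without NC replicate 1, where it was called (adjusted p = 0.047, limma), to -0.05 without NC replicate 2.

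Of the 10 tested genes of apoptosis and death receptor signalling, 3 were called lower in A3B OE cells, beside 7.49% of all genes tested. AEN, an apoptosis-enhancing nuclease, was at 31.7 and 30.5 FPKM in NC and 20.4 and 17.8 FPKM in A3B OE libraries, with a log2 fold change of -0.68 (SE 0.10, adjusted p = 0.010, limma). FAS, the death receptor for FAS ligand, was at 19.4 and 19.8 FPKM in NC and 13.1 and 12.2 FPKM in A3B OE libraries, with a log2 fold change of -0.60 (SE 0.10, adjusted p = 0.012, limma). The libraries did not overlap for either gene, and without A3B OE replicate 2 FAS was not called (adjusted p = 0.064, limma). FAS overlaps ACTA2 on the other strand, a smooth muscle actin gene that was itself lower, at 34.6 and 40.6 FPKM in NC and 25.1 and 26.9 FPKM in A3B OE libraries (log2 fold change -0.51, adjusted p = 0.025, limma). It also shares 21341 bases with STAMBPL1 on the same strand, which was at 6.04 and 4.82 FPKM in NC and 7.43 and 7.78 FPKM in A3B OE libraries (log2 fold change 0.43, adjusted p = 0.091, limma). These bases were counted over whole gene spans, introns included, and whether fragments were shared between the genes was not tested. TNFRSF10B, a receptor for TRAIL, shares 377 bases with RHOBTB2 on the other strand. RHOBTB2 was at 3.22 and 3.44 FPKM in NC and 5.05 and 4.21 FPKM in A3B OE libraries. TNFRSF10B was at 57.1 and 55.7 FPKM in NC and 45.9 and 43.99 FPKM in A3B OE libraries. Its log2 fold change of -0.32 (SE 0.07, adjusted p = 0.035, limma) was the smallest among the members called, and the call was lost with any 1 of the 4 libraries left out (adjusted p from 0.073 without A3B OE replicate 1 to 0.14 without NC replicate 1).

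Neither pro-apoptotic BCL2 family member was called. BBC3, which encodes PUMA, was at 12.7 and 18.1 FPKM in NC and 12.6 and 11.2 FPKM in A3B OE libraries. Its log2 fold change was -0.33 (95% interval -0.76 to 0.09, adjusted p = 0.24, limma), and it was -0.57 and called without NC replicate 1 (adjusted p = 0.023) and -0.09 without NC replicate 2. BAX, the pore-forming effector, was at 140.3 and 139.8 FPKM in NC and 173 and 145 FPKM in A3B OE libraries, the only member with both A3B OE libraries above both NC libraries among those tested. The log2 fold change of BAX was 0.18 (95% interval -0.05 to 0.41, adjusted p = 0.25, limma). Both genes lie on the long arm of chromosome 19, where 79.5% of 449 genes tested had a log2 fold change above 0, with a median of 0.23. Over all genes tested, 5868 of 11611 were above 0, with a median of 0.00. The part of this region in either value was not tested. TRIAP1, an inhibitor of caspase activation, PHLDA3, an inhibitor of AKT, and PERP, a membrane protein of apoptosis and desmosomes, had log2 fold changes of -0.20, -0.27 and -0.26, without overlap between the groups, and were not called. DRAM1 (0.05), a regulator of autophagy, and RPS27L (-0.01), a p53-induced ribosomal protein, overlapped between the groups. RPS27L resembles RPS27, which lay between 2763 and 6446 FPKM over the 8 libraries, and how the authors' counting divided shared reads is not given in the sources used here. RPS27L also overlaps LACTB on the other strand, which was called higher in A3B OE cells (log2 fold change 0.47, adjusted p = 0.030, limma). TNFRSF10A and SPATA18 were not tested.

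Of the 4 genes of DNA repair and nucleotide supply, RRM2B alone was called lower, beside 7.49% of all genes tested, and 0 were called higher. RRM2B, the p53-inducible subunit of ribonucleotide reductase, was at 31.3 and 33.0 FPKM in NC and 18.5 and 19.3 FPKM in A3B OE libraries, and its mean FPKM fell by 41.2%. The log2 fold change was -0.74 (SE 0.09, adjusted p = 0.0052, limma). The groups did not overlap. The other three take part in repair or bypass of DNA lesions, and their 95% intervals included 0. DDB2 and XPC recognise damage in nucleotide excision repair and had log2 fold changes of -0.03 (95% interval -0.38 to 0.32) and -0.10 (-0.35 to 0.15). POLH, the translesion polymerase eta, had a log2 fold change of -0.07 (-0.35 to 0.21). POLH shares 15208 bases with GTPBP2 on the other strand, which was at 28.5 and 25.8 FPKM in NC and 27.7 and 27.7 FPKM in A3B OE libraries.

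Of the 5 tested genes of metabolism, redox and growth signalling, 2 were called lower, beside 7.49% of all genes tested. TP53I3, a quinone oxidoreductase, was at 29.2 and 29.3 FPKM in NC and 18.96 and 19.3 FPKM in A3B OE libraries, with a log2 fold change of -0.59 (SE 0.08, adjusted p = 0.0092, limma). TP53I3 shares 8429 bases with FAM228B on the other strand. FAM228B was at 5.25 and 2.86 FPKM in NC and 1.91 and 3.37 FPKM in A3B OE libraries (log2 fold change -0.46, adjusted p = 0.32, limma). FDXR, the mitochondrial ferredoxin reductase, was at 31.3 and 34.7 FPKM in NC and 24.0 and 22.7 FPKM in A3B OE libraries, with a log2 fold change of -0.48 (SE 0.09, adjusted p = 0.021, limma). FDXR was not called without NC replicate 2 (adjusted p = 0.066) or without either A3B OE library (0.065 without replicate 1 and 0.091 without replicate 2). TIGAR, which lowers fructose-2,6-bisphosphate, was at 13.3 and 8.49 FPKM in NC and 6.34 and 6.36 FPKM in A3B OE libraries, so its NC libraries differed widely. Its log2 fold change was -0.66 (adjusted p = 0.074, limma), and without NC replicate 2 it was -0.96 and called (adjusted p = 0.00097). SESN1, a sestrin that restrains mTORC1, and CMBL each had a log2 fold change of -0.25 and were not called. In all 5 genes the A3B OE values were below the NC values without overlap, beside 29.7% of all genes tested.

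The calls of 6 members, CDKN1A, TP53INP1, BTG2, AEN, RRM2B and TP53I3, were made under each of the 9 other settings tried and with each of the 4 MEL290 libraries left out. Without any filter on low FPKM, 7 members were called, and without A3B OE replicate 2, 8 were called. In both cases 0 members were called higher. Members with a p53 site near the start made up 9 of the 13 genes called lower. The median log2 fold change was -0.52 over the 14 tested members with a site and -0.27 over the 17 without one, which is a description of this list and was not tested.

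Other genes around p53 were read from lists fixed with the members, and all were chosen with earlier results of these data known. Of 26 further direct p53 targets, 23 were tested in MEL290, of which 6 were called lower and 3 higher. Over all genes tested, 7.49% were called lower and 10.3% higher. The median log2 fold change of these targets was -0.14, with 0.00 over all genes tested. PTCHD4, a patched-domain protein, was at 4.25 and 4.82 FPKM in NC and 0.923 and 0.830 FPKM in A3B OE libraries, with the largest fall of this list (log2 fold change -1.56, adjusted p = 0.0030, limma), and it passed the filter only through the NC libraries. CYFIP2 (log2 fold change -0.73) and SESN2 (-0.54) were called lower too. In the other direction, TP53I11 was at 0.547 and 0.568 FPKM in NC and 4.74 and 5.56 FPKM in A3B OE libraries (log2 fold change 1.98, adjusted p = 0.0018, limma), and it passed the filter only through the A3B OE libraries. KITLG, the ligand of the receptor KIT, rose by 0.55 on the log2 scale.

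Of the 21 tested genes of p53 and its regulators, 3 were called higher and 1 lower, which is close to the shares of all genes tested given above (10.3% and 7.49%). PPP1R13L, which encodes iASPP, an inhibitor of p53, was at 41.5 and 43.7 FPKM in NC and 98.5 and 93.7 FPKM in A3B OE libraries (log2 fold change 1.15, adjusted p = 0.0016, limma). PPP1R13L lies on the long arm of chromosome 19, and the part of this region in its value was not tested. CDKN2A, which encodes p16 and the MDM2 inhibitor ARF, rose from 4.96 and 4.83 FPKM to 8.81 and 7.86 FPKM (log2 fold change 0.66, adjusted p = 0.018, limma). CHEK1, the checkpoint kinase, rose by 0.46 on the log2 scale (adjusted p = 0.035, limma). COP1, a ubiquitin ligase for p53, was at 14.7 and 13.6 FPKM in NC and 9.23 and 8.72 FPKM in A3B OE libraries (log2 fold change -0.61, adjusted p = 0.016, limma).

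Of the 18 cell cycle genes known to be lowered through p53, p21 and DREAM, 17 were called higher in A3B OE cells and 0 lower. Over all genes tested, 10.3% were called higher and 7.49% lower. The median log2 fold change of the 18 genes was 0.99, with 0.00 over all genes tested. MKI67, the gene of the proliferation marker Ki-67, was at 10.7 and 10.8 FPKM in NC and 29.0 and 30.6 FPKM in A3B OE libraries (log2 fold change 1.39, adjusted p = 0.0016, limma). AURKB (1.17), TOP2A (1.14), MYBL2 (1.12), RRM2 (1.07) and CCNA2 (1.06), which act in mitosis, chromosome segregation, cell cycle transcription, nucleotide supply and S phase, followed by size of the log2 fold change. CDC25A was the 1 gene not called (0.17). RRM2, the S-phase subunit of ribonucleotide reductase, rose from 62.7 and 52.3 FPKM to 129 and 114 FPKM, while its p53-inducible counterpart RRM2B fell, as described above.

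**Figure D3:**
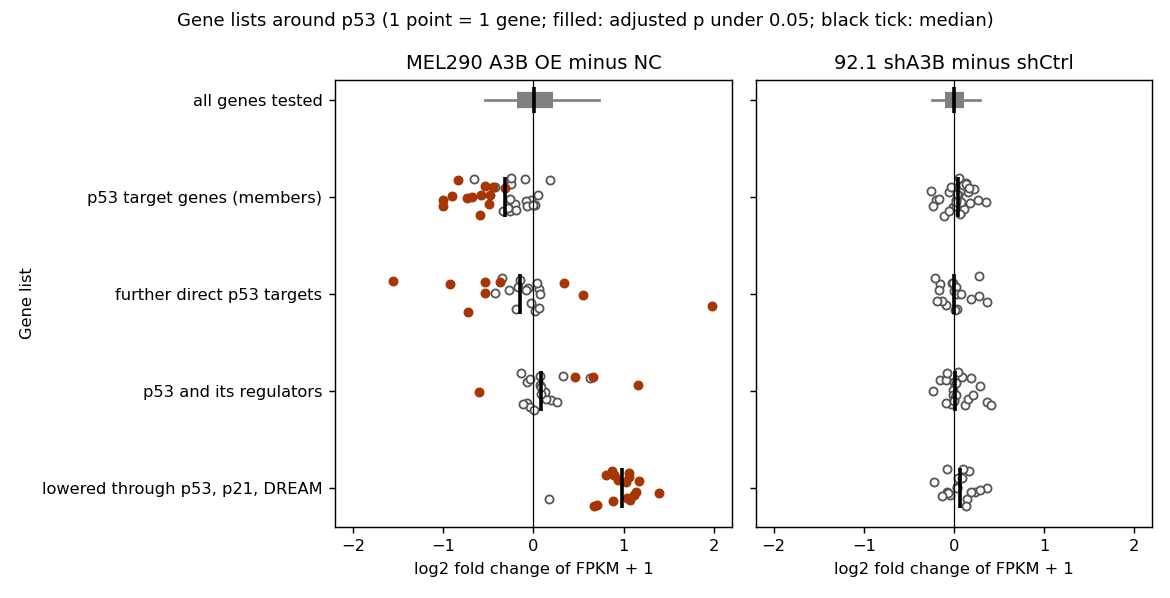
Log2 fold change of FPKM + 1 (x axis) of each tested gene in the members and in 3 further lists (y axis), in MEL290 (left) and 92.1 (right), with 1 point per gene, filled where the adjusted p was under 0.05, and a black tick at the median. For all genes tested, the grey box spans the quartiles and the grey line the 5th to 95th percentiles, and in MEL290 the members have a median of -0.32 and the genes lowered through p53, p21 and DREAM a median of 0.99.

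In 92.1, A3B depletion was accompanied by no called change of a p53 target. Of the 31 members tested (CMBL, TNFRSF10A and SPATA18 were not), 0 were called by limma and 0 had an unadjusted p under 0.05, beside 0.00862% of all 11605 genes, which is APOBEC3B alone, and 336 genes at an unadjusted p under 0.05. The study used Cuffdiff on reads, a test that was not run here, and reported differentially expressed genes in both directions in 92.1. The log2 fold change was above 0 for 22 of the 31 members, beside 5804 of all 11605 genes tested. The median log2 fold change of the members was 0.04, with 0.00 over all genes tested, and the values ran from -0.26 (TNFRSF10B) to 0.35 (CDKN1A). With 1 library left out, the median lay between -0.012 without shCtrl replicate 2 and 0.090 without shA3B replicate 2, so it had no stable direction. Both shA3B libraries lay below both shCtrl libraries for 2 members, TNFRSF10B and TP53I3, and above them for 6, FBXO22, BTG2, TRIAP1, PERP, RPS27L and XPC. These counts are 6.45% and 19.4% of the members, beside 13.3% and 15.3% of all genes tested.

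CDKN1A was at 24.3 and 16.6 FPKM in shCtrl and 32.4 and 20.8 FPKM in shA3B libraries of 92.1. The groups overlapped, and the 95% interval of the log2 fold change ran from -0.13 to 0.84. MDM2 was at 25.2 and 16.3 FPKM in shCtrl and 23.7 and 18.4 FPKM in shA3B libraries (95% interval -0.40 to 0.49), and BAX was at 94.9 and 133 FPKM in shCtrl and 108 and 119 FPKM in shA3B libraries (-0.35 to 0.38). For these genes the libraries of 1 group differed more than the group means. BBC3 was at 11.8 and 10.7 FPKM in shCtrl and 10.9 and 8.52 FPKM in shA3B libraries (-0.56 to 0.16). TNFRSF10B was at 35.8 and 41.1 FPKM in shCtrl and 33.8 and 30.1 FPKM in shA3B libraries (-0.57 to 0.05), and TP53I3 at 6.09 and 6.57 FPKM in shCtrl and 5.49 and 5.52 FPKM in shA3B libraries (-0.52 to 0.17). All 6 intervals included 0 and none reached a log2 change of 1 in either direction, and the widest upward was that of CDKN1A.

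Many members differed in the same direction between the libraries of both 92.1 groups. The library numbered 1 was above the library numbered 2 in both groups for 14 of 31 members (45.2%), beside 29.9% of all genes tested, and in MEL290 for 9 of 31 members (29.0%), beside 26.4%. MDM2, CDKN1A, ZMAT3 and TP53INP1 were among them, and ZMAT3 for example was at 12.9 and 8.52 FPKM in shCtrl and 12.8 and 8.86 FPKM in shA3B libraries. CPM, which overlaps MDM2, differed the same way, with 18.2 and 4.36 FPKM in shCtrl and 30.2 and 6.02 FPKM in shA3B libraries. MKI67 was at 2.06 and 5.27 FPKM in shCtrl and 2.05 and 9.43 FPKM in shA3B libraries, and its part in the spread of the members was not tested. None of the 3 other lists had a gene called by limma in 92.1, and at an unadjusted p under 0.05 there were 2 of 22 among p53 and its regulators, 0 of 18 among the further targets and 0 of 18 among the genes lowered through p53, p21 and DREAM. The median log2 fold changes of these lists were 0.01, 0.00 and 0.07.

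The difference between the effect of A3B OE in MEL290 and that of shA3B in 92.1 was tested in 1 fit over all 8 libraries. Since A3B was raised in one line and lowered in the other, a gene that rises and falls with A3B counts as different here. Of 32 members tested, 3 were called lower and 0 higher, beside 1.35% of 12697 genes called lower and 3.06% called higher, and 0 members were higher at an unadjusted p under 0.05 as well. BTG2 differed by -0.91 on the log2 scale (SE 0.16, adjusted p = 0.024, limma), CDKN1A by -1.36 (SE 0.30, adjusted p = 0.047) and FBXO22 by -0.58 (SE 0.13, adjusted p = 0.0495). With 1 library left out, BTG2 and FBXO22 were called in none of 8 fits and CDKN1A in 1 of 8 fits (without shA3B replicate 2), and the adjusted p reached 0.15 for CDKN1A without A3B OE replicate 2. TP53INP1 (-1.03, adjusted p = 0.12), ZMAT3 (-0.92, adjusted p = 0.15), RRM2B (-0.68, adjusted p = 0.14), AEN (-0.57, adjusted p = 0.15) and MDM2 (-0.58, adjusted p = 0.30) did not pass. Most members called in MEL290 were thus not called here. The test cannot tell a difference between the lines from opposite responses to opposite changes of A3B.

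Control cells of the 2 lines differed in p53 target levels. In this comparison the cell line and the control vector cannot be told apart, the NC and shCtrl libraries are those used above, and APOBEC3B itself was lower in MEL290 NC. Of 32 members tested, 24 were called higher and 2 lower in MEL290 NC, beside 33.7% of 12352 genes called higher and 39.3% called lower. The median log2 fold change of the members was 1.27, and that of all genes tested was -0.08. CMBL passed the filter only through MEL290 and GDF15 only through 92.1, the line where each was detected, so the direction of both was fixed by the filter. Without them, a count added after the data were seen, 23 of 30 members were called higher and 1 lower.

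All 5 cell cycle arrest genes were called higher in MEL290 NC, beside 33.7% of all genes tested. CDKN1A was at 24.3 and 16.6 FPKM in 92.1 shCtrl and 371 and 391 FPKM in MEL290 NC, a ratio of means of 18.6 (log2 fold change 4.18, SE 0.17, adjusted p = 1.8e-05, limma). PLK2 was at 21.3 and 14.7 FPKM in shCtrl and 317 and 309.7 FPKM in NC, a ratio of 17.4 (log2 fold change 4.07, SE 0.17, adjusted p = 1.8e-05, limma). GADD45A was at 6.36 and 5.34 FPKM in shCtrl and 67.2 and 66.7 FPKM in NC, a ratio of 11.4, and BTG2 at 2.73 and 2.67 FPKM in shCtrl and 14.02 and 14.2 FPKM in NC, a ratio of 5.22. The libraries of each line lay close together beside these distances. PLK3 was higher by 1.60 on the log2 scale.

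Of the 10 tested genes of apoptosis, 7 were called higher in MEL290 NC, beside 33.7% of all genes tested. FAS was at 2.77 and 1.24 FPKM in shCtrl and 19.4 and 19.8 FPKM in NC (log2 fold change 2.82, SE 0.26, adjusted p = 0.00026, limma). Its overlapping neighbour ACTA2 was at 1.88 and 0.949 FPKM in shCtrl, so it was lower in 92.1 too. DRAM1 (2.68), PERP (2.61), RPS27L (1.97), PHLDA3 (0.76), TNFRSF10B (0.54) and TRIAP1 (0.43) were called higher on the log2 scale as well. BBC3 (0.40), BAX (0.32) and AEN (0.27) were not called. Removing the trend with GC and length gave a call for all 3, with 1.64 for BBC3, 0.68 for BAX and 0.46 for AEN. BAX was also called with the replicate block (adjusted p = 0.035, limma) and AEN under 2 more settings. Among the regulators, MDM2 (1.66), TP53INP1 (1.53), ZMAT3 (1.40) and CCNG1 (0.64) were called higher, and PPM1D (0.28) and FBXO22 (-0.03) were not called. Removing the trend with GC and length gave -0.46 and a call for FBXO22 (adjusted p = 0.014, limma). MDM4 was the 1 regulator called lower, at 14.7 and 13.8 FPKM in shCtrl and 7.84 and 6.59 FPKM in NC (log2 fold change -0.90, SE 0.14, adjusted p = 0.0019, limma).

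In the repair group RRM2B (1.49), DDB2 (0.68) and XPC (0.66) were higher in MEL290 NC on the log2 scale, and POLH (0.28) was not called. TP53I3, at 6.09 and 6.57 FPKM in shCtrl and 29.2 and 29.3 FPKM in NC, had a log2 fold change of 2.05 (SE 0.11, adjusted p = 4.1e-05, limma). FDXR (1.58), TIGAR (1.14) and SESN1 (0.94) were higher too, and CMBL was detected in MEL290 and listed at 0 in 92.1. GDF15 was the 1 metabolic or growth signalling gene called lower and was listed at 0 in both NC libraries. Without NC replicate 1, and likewise without NC replicate 2, 19 members were called, and DDB2 and TIGAR were not called with any 1 of the 4 libraries left out. CCNG1, TP53INP1, TNFRSF10B and TRIAP1 lost their calls without either NC library, ZMAT3 without NC replicate 2 and XPC without NC replicate 1. Of the 18 genes lowered through p53, p21 and DREAM, 13 were called lower in MEL290 NC and 1, MKI67, higher. Of the 23 further direct targets tested, 15 were called higher and 3 lower. Beside both lists, 33.7% of all genes tested were called higher in MEL290 NC and 39.3% lower.

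**Figure D4:**
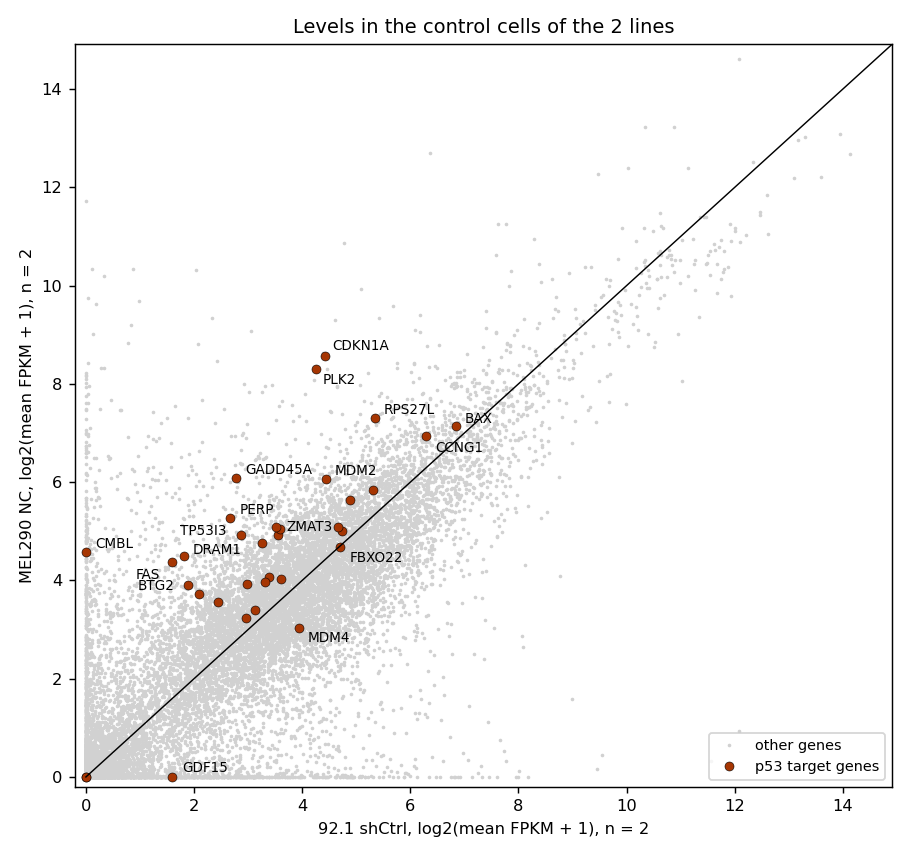
Levels in control cells, with log2 of the mean FPKM + 1 over 2 libraries of 92.1 shCtrl on the x axis and of MEL290 NC on the y axis. Each grey point is another gene, each red point a member, and the line marks equal levels. CDKN1A, PLK2 and GADD45A lie far above the line, and MDM4 and GDF15 below it.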

How the data were processed

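The deposited values are FPKM that the authors obtained with Cufflinks after STAR alignment to GRCh38, over gene models named as Ensembl release 75. No versions are given in the sources used here. Each of the 8 files holds 1 library. The 34 members, the other gene lists and the naming rule (all members, APOBEC3B, called genes of the other lists to at most 6 per list and comparison by size of fold change, genes that overlap a member, and library values for called members and for MDM2, CDKN1A, BBC3 and BAX) were chosen with earlier results of these data known. CDC25A and MKI67, each the exception in a count, were also named after their values were seen. On the log2(FPKM + 1) scale, genes that reached 1 FPKM in 2 or more libraries of a fit were tested two-sided in limma 3.58.1 (eBayes, trend) under R 4.3.3, and p-values were adjusted by Benjamini-Hochberg over all of them (threshold 0.05). Cuffdiff needs reads and was not run. The alternatives were a pseudocount of 0.1, 2 other filters, no trend, quantile normalization, upper quartile scaling, removal of a GC and length trend, the replicate number as a block, all 8 libraries in 1 fit, and each library left out in turn. The test was tried on simulated data with 200 changed genes. Gene models were matched by symbol to GENCODE 44 (19033 of 19952), whose coordinates are used, and sites were read from the GRCh38 sequence. Bases shared by overlapping genes were counted over whole gene spans, introns included. Values of 0 can be failed estimates and are described as listed at 0. Values of some genes of the further lists are not reported here.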

Additional observations from a re-analysis of the deposited data

Results flagged for a closer look

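CDKN1A, BTG2 and FBXO22 were flagged because their response to A3B OE in MEL290 and to shA3B in 92.1 differed in the test of the difference itself. A gene that falls when A3B is raised and rises when A3B is lowered differs here too. The test therefore does not show that the lines respond differently to A3B. The difference of the log2 fold changes was -1.36 for CDKN1A, -0.91 for BTG2 and -0.58 for FBXO22, each lower in A3B OE cells (limma, adjusted p of 0.047, 0.024 and 0.0495). Within the lines, CDKN1A changed by -1.0 in MEL290 and 0.35 in 92.1, BTG2 by -0.84 and 0.08, and FBXO22 by -0.45 and 0.14, and in 92.1 no change was called. Over the other settings the adjusted p ran from 0.025 to 0.12 for CDKN1A, from 0.013 to 0.066 for BTG2 and from 0.039 to 0.11 for FBXO22. With 1 of the 8 libraries left out, BTG2 and FBXO22 were called in 0 of 8 fits and CDKN1A in 1 of 8.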

How the results depend on the processing

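The labels number the libraries 1 and 2 in each group. Same-numbered libraries deviated together in 92.1 (correlation over genes 0.19, over members 0.64) but not in MEL290 (-0.03 over genes), and with 2 pairs the numbers were not taken to pair the libraries. With the replicate block, 37 genes and 0 members were called in 92.1, 1521 genes and 11 members in MEL290, and 223 genes and 2 members for the difference between the effects. Without the filter, 0 genes were called in 92.1 (556 at an unadjusted p under 0.05), 915 in MEL290 with 7 members and a median of the members of -0.28, and the median between control cells was 1.14. Without the trend 2 genes were called in 92.1, and 1 member for the difference, as with a pseudocount of 0.1, which gave a median of 1.39 between control cells. The stricter filter gave 328 genes for the difference. Upper quartile scaling gave a median of -0.29 in MEL290, removal of the GC and length trend gave -0.34 there and 1.13 between control cells, and quantile normalization gave 1.29 between control cells. The GC and length trend removal called 915 genes for the difference, 541 higher and 374 lower, where the main test called 388 higher and 171 lower. With 1 library left out, calls ranged from 2 to 7 genes in 92.1, from 774 to 1944 in MEL290 (774 without A3B OE replicate 2 and 902 without replicate 1) and from 150 to 285 for the difference, members called from 8 to 14 in MEL290 and from 0 to 1 for the difference, and medians from -0.37 to -0.32 in MEL290, from 1.17 to 1.37 between control cells from -0.42 to -0.29 for the difference and from -0.012 to 0.090 in 92.1. No member called by the main test turned direction. Among the others, over the settings that keep all libraries, 10 of 31 members turned in 92.1, 2 of 31 in MEL290, 1 of 32 between control cells and 2 of 32 for the difference. Removal of the GC and length trend gave -0.056 for MDM2 and -0.088 for ZMAT3 in 92.1 and -0.0081 for MDM4 in MEL290, quantile normalization gave -0.0053 for ZMAT3 in 92.1, -0.0053 for MDM4 and 0.022 for RPS27L in MEL290 and 0.026 for FBXO22 between control cells, and upper quartile scaling gave 0.020 for RPS27L. With 1 library left out, 21 of 31 members turned in 92.1, 5 of 31 in MEL290, 1 of 32 between control cells and 8 of 32 for the difference. In 92.1 they include MDM2 (-0.26 to 0.34), ZMAT3 (-0.25 to 0.29), BAX (-0.23 to 0.25), PLK2 (-0.49 to 0.014) and FAS (-0.11 to 0.64), in MEL290 they are MDM4 (-0.11 to 0.14), PLK2 (-0.17 to 0.010), DRAM1 (-0.0070 to 0.11), RPS27L (-0.029 to 0.0094) and DDB2 (-0.18 to 0.12), and between control cells it is FBXO22 (-0.095 to 0.036). The causes were not tested. Depth is known only roughly, so no counting error can be given for low genes such as GDF15.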
